A study of Mus musculus with 6 samples.

Results

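The 10 genes described here are markers of platelets and of megakaryocytes, the bone marrow cells that shed platelets: Ppbp, Pf4, Itga2b, Itgb3, Nrgn, Gp1bb, Gp9, Gp6, Treml1 and Clec1b. They were taken by name from a count table of 51789 mouse genes, in which each of the 10 has 1 row. The table comes from Ly6G-selected mouse bone marrow neutrophils, a preparation of over 95% purity per the labels. The 3 KO-labelled samples are described as knockout for Snph, the gene of the mitochondrial anchor protein syntaphilin, and the 3 WT-labelled samples as its control. By its title, the study is about how neutrophils migrate in cancer. The labels name no strain, age, sex, treatment, allele or deleted part, nor whether each sample is a separate mouse. The p-values set the difference between the groups against the variation among samples within them, and that variation may be technical.

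Platelets are anucleate and carry RNA from the megakaryocyte. They store chemokines in alpha granules, adhere to von Willebrand factor through the GPIb-IX-V complex, to fibrinogen through an integrin of an alpha IIb and a beta 3 chain, and to collagen through GPVI. GPVI and the podoplanin receptor CLEC-2 signal through tyrosine motifs and the kinase Syk. In blood and inflamed tissue, activated platelets bind neutrophils and release chemokines that act on them.

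Total counts were 7179569 to 9165218 in the KO-labelled and 7018388 to 9664381 in the WT-labelled libraries, so that a single count was worth 0.103 to 0.142 CPM (counts per 1000000). Levels below are CPM scaled by TMM factors, which adjust for differences in library composition. QuantSeq reads 1 tag at the 3′ end of a transcript, so CPM was not divided by gene length. Neutrophil markers dominated in both groups, with S100a8 at 137200 ± 6257 CPM in KO-labelled and 116000 ± 6648 CPM in WT-labelled libraries (SD, n = 3 each). Snph itself went against the labels, with 5, 2 and 8 counts in KO 1, 2 and 3 and 0 in each WT-labelled library. The labels do not say which part of Snph was deleted, so whether these 3′ tags lie outside it, or whether the labels were exchanged, was not tested. If they were exchanged, every direction given here would turn round. Groups are therefore called KO-labelled and WT-labelled throughout.

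Windows around the start sites are printed for 4 of the genes. These are a pair of neighbouring genes that differed (Ppbp and Pf4), another gene that differed (Itga2b) and one that did not pass the test (Gp1bb). The windows run from 250 bases before to 50 after the RefSeq start (GRCm38.p6, the assembly of mm10), on the strand of the gene. For Itga2b the RefSeq start lies inside the gene as GENCODE gives it, which begins at 102470122 on the minus strand. Most of its window, with both marked ETS matches, is thus within the gene and not upstream of it. Capitals mark 2 motifs searched on both strands: the GATA motif, bound by factors such as the megakaryocyte regulator GATA1, and an ETS motif, bound by factors such as FLI1. The letters searched for GATA were AGATAA and its variant ending in G (AGATAG), and likewise TGATAA with its variant TGATAG. Those for ETS were AGGAAG and also CGGAAG. No marked matches overlapped in these windows.
Ppbp, chr5:90768268-90768567, plus strand: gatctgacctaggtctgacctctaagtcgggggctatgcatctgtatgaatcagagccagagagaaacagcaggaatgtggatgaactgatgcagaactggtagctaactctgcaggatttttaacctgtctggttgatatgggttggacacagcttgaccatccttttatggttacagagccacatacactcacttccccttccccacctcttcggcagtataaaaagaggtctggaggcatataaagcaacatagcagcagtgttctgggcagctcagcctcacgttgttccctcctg
Pf4, chr5:90772185-90772484, plus strand: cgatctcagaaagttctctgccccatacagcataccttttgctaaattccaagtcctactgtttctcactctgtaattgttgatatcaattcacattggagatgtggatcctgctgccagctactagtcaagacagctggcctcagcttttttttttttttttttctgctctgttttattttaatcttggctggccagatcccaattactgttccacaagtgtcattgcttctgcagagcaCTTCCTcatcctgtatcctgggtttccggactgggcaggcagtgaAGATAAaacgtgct
Itga2b, chr11:102469834-102470133, minus strand: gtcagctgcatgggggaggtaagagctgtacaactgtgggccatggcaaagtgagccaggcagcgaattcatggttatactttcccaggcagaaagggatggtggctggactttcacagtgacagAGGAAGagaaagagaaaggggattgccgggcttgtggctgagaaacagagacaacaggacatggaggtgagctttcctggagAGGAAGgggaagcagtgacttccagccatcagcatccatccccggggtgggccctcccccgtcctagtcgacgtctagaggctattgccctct
Gp1bb, chr16:18622354-18622653, minus strand: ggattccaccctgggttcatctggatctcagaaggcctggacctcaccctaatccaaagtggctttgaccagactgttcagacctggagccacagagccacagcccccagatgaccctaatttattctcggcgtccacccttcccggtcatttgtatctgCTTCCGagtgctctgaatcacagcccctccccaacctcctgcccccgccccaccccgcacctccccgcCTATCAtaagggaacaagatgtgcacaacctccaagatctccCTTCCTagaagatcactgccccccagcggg

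RefSeq windows matched 9 of the 10 genes by symbol. The GATA motif was in 4 of the 9 (Pf4, Gp1bb, Gp6 and Clec1b), against 29.8% of 32851 mouse windows of the same length, and the ETS motif in 4 (Pf4, Itga2b, Gp1bb and Gp9), against 46.5%. Both were in the windows of Pf4 and Gp1bb, against 12.6% of all windows. The windows of Ppbp, Nrgn and Treml1 held none of these letters. Genes with and without a match were thus found both among those that passed the test and among those that did not.

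In the KO-labelled libraries the transcripts of both platelet chemokines (Ppbp and Pf4), of the alpha IIb integrin chain (Itga2b) and of neurogranin (Nrgn) were lower, by 1.70-fold (Pf4) to 2.82-fold (Nrgn). Itgb3 and Gp1bb, the genes with the most tags, did not pass the test and lay within 1.13-fold of the WT-labelled mean. Gp9, Gp6, Treml1 and Clec1b had lower means by 1.53-fold to 2.05-fold, at low counts, and did not pass either. With edgeR's quasi-likelihood test and a threshold of 0.05 on the adjusted p, 4 of the 10 genes were lower, where 0.789% of the 10397 genes tested were. None was higher, where 0.24% of the genes tested were. At an unadjusted p under 0.05, 6 of the 10 were lower, where 6.35% of all genes were, and 0 higher, where 5.03% were. DESeq2 called the same 4 genes lower, where it called 1.1% of all genes, and 0 higher, where it called 0.577%. In 6 of the 10 every KO-labelled library lay below every WT-labelled one, which held for 9.32% of genes tested. The median log2 fold change was -0.93 for the 10 genes and 0.0057 for all genes tested. All 10 passed the filter on low counts, but Gp6 did so through the WT-labelled libraries alone, since 0 of its KO-labelled libraries reached the cutoff of 1.28 CPM by total count. The number of genes called was 1 (Ppbp) without WT 1 and 2 (Ppbp and Itga2b) without KO 2 or without KO 3. In bulk RNA, fewer platelets or megakaryocytes and less of a transcript in each of them cannot be told apart. Macrophage markers, a list drawn up with earlier results of these data known, were lower as well. Their summed level was 505 ± 57.9 CPM in KO-labelled and 1041 ± 41.7 CPM in WT-labelled libraries (SD, n = 3 each). Their part in the platelet result was not tested.

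**Figure D1:**
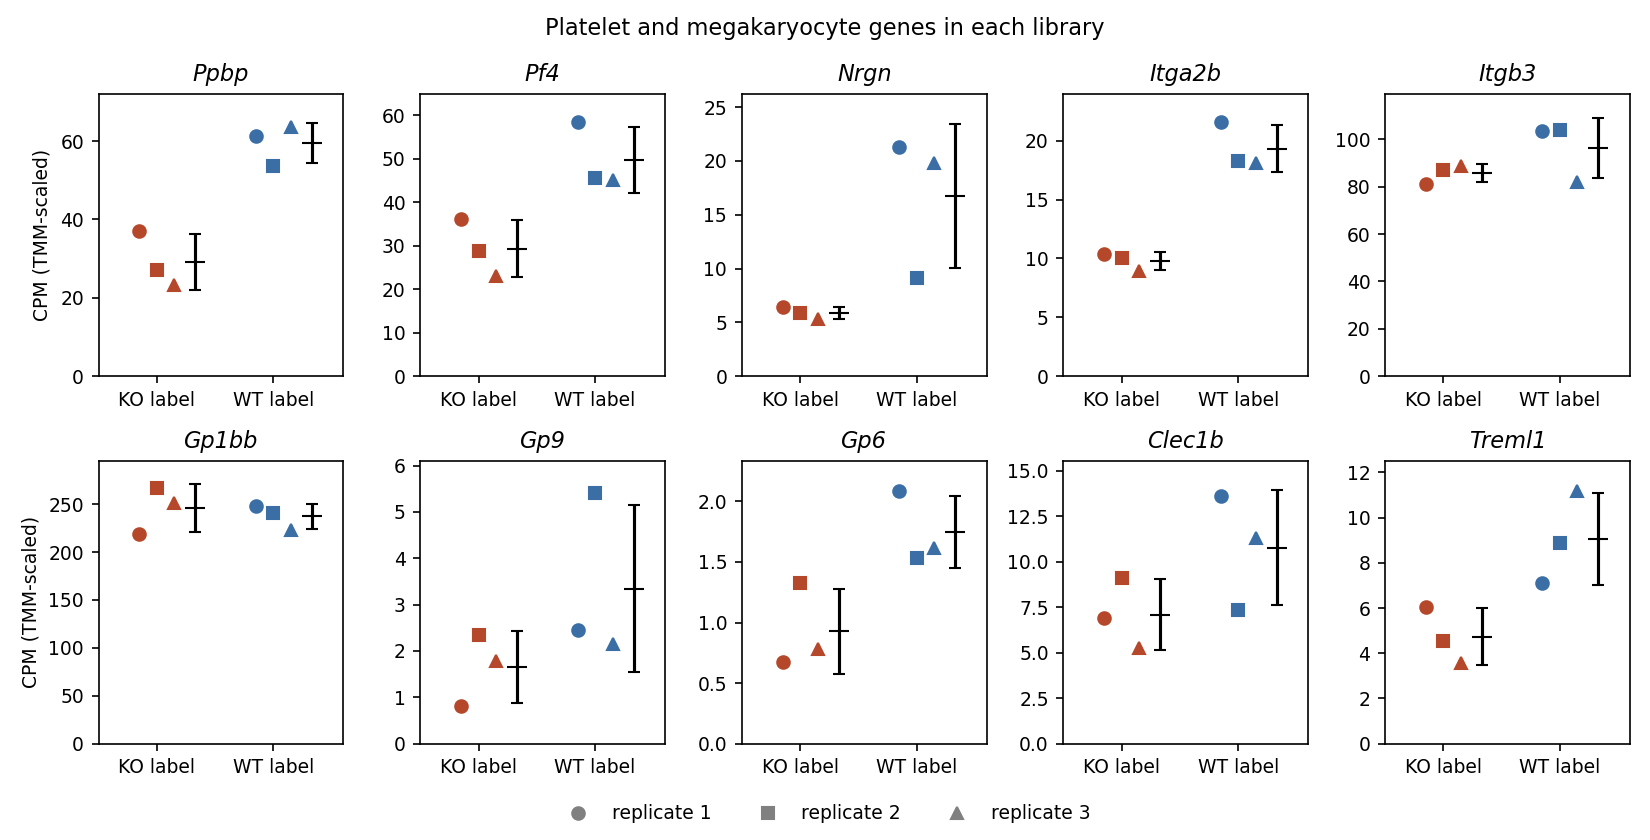
Level of each gene (TMM-scaled CPM, axis from 0) in the 3 KO-labelled (left) and 3 WT-labelled libraries (right). Symbols mark the replicate, and bars give the mean ± SD. For Ppbp, Pf4, Nrgn, Itga2b, Gp6 and Treml1 the groups do not overlap; for Itgb3, Gp1bb, Gp9 and Clec1b they do.

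Ppbp encodes pro-platelet basic protein, which is cleaved to a chemokine that attracts neutrophils through Cxcr2. It lies on chromosome 5 (ENSMUSG00000029372, 90768518 to 90770063, plus strand, mm10). Its level was 37.1, 27.1 and 23.2 CPM in KO 1, 2 and 3, against 61.3, 53.7 and 63.5 CPM in WT 1, 2 and 3. The KO-labelled libraries were all lower, and the highest of them, KO 1, was at 37.1 CPM. Means were 29.1 ± 7.15 CPM in KO-labelled and 59.5 ± 5.17 CPM in WT-labelled libraries (SD, n = 3 each), a log2 fold change of -1.03 (95% interval -1.35 to -0.72, SE 0.15, adjusted p = 0.0021). Ppbp ranked 24th of the 10397 genes by p, and it was the only gene of the 10 called in all 14 alternative fits, with adjusted p of at most 0.0169.

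Pf4 encodes platelet factor 4, a heparin-binding chemokine of the same family, and starts 2371 bases after the end of Ppbp on the same strand (ENSMUSG00000029373, chromosome 5, 90772435 to 90773383, mm10). It had 36.1, 28.7 and 23.1 CPM in KO 1, 2 and 3, against 58.4, 45.6 and 45.0 CPM in WT 1, 2 and 3. The groups did not overlap, and as for Ppbp the highest KO-labelled library was KO 1 and the lowest KO 3. The log2 fold change was -0.77 (95% interval -1.10 to -0.43, SE 0.16, adjusted p = 0.0282). It no longer passed when WT 1 was left out (adjusted p = 0.167), nor when WT 2 (0.0960), KO 2 (0.0867) or KO 3 (0.0898) was. Over all alternatives the adjusted p ran from 5.19e-07 to 0.167.

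Counts of Pf4 were 97.5%, 106% and 99.5% of those of Ppbp in KO 1, 2 and 3, against 95.2%, 85.0% and 70.9% in WT 1, 2 and 3. This ratio, which does not depend on the scaling of the libraries, was higher in each KO-labelled library than in any WT-labelled one. The mean log2 ratio was 0.01 ± 0.06 in KO-labelled and -0.27 ± 0.21 in WT-labelled libraries (SD, n = 3 each), a difference of 0.28 (exact two-sided permutation test, p = 0.1, adjusted over 3 gene pairs 0.1). The difference was 0.17 without WT 3. With 3 against 3 samples this test cannot go below 0.1, and none of the 3 pairs can pass 0.05.

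Nrgn encodes neurogranin, a calmodulin-binding protein best known from neurons, whose transcript is also known from human platelets (ENSMUSG00000053310, chromosome 9, 37544492 to 37552904, minus strand, mm10). Its level was 6.47, 5.88 and 5.36 CPM in KO 1, 2 and 3, against 21.3, 9.09 and 19.8 CPM in WT 1, 2 and 3. All KO-labelled libraries were lower, and WT 2 lay nearer to them than to WT 1 and WT 3. It had the largest fold change of the 10 genes, with a log2 of -1.4955 and the widest interval of the 4 called genes, -2.10 to -0.90 (SE 0.28, adjusted p = 0.0168). It did not pass when WT 1 (adjusted p = 0.0996), WT 3 (0.0754), KO 2 (0.0536) or KO 3 (0.0564) was left out, nor with limma-voom (0.0947). The adjusted p ran from 4.45e-09 to 0.0996 over all alternatives.

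**Figure D2:**
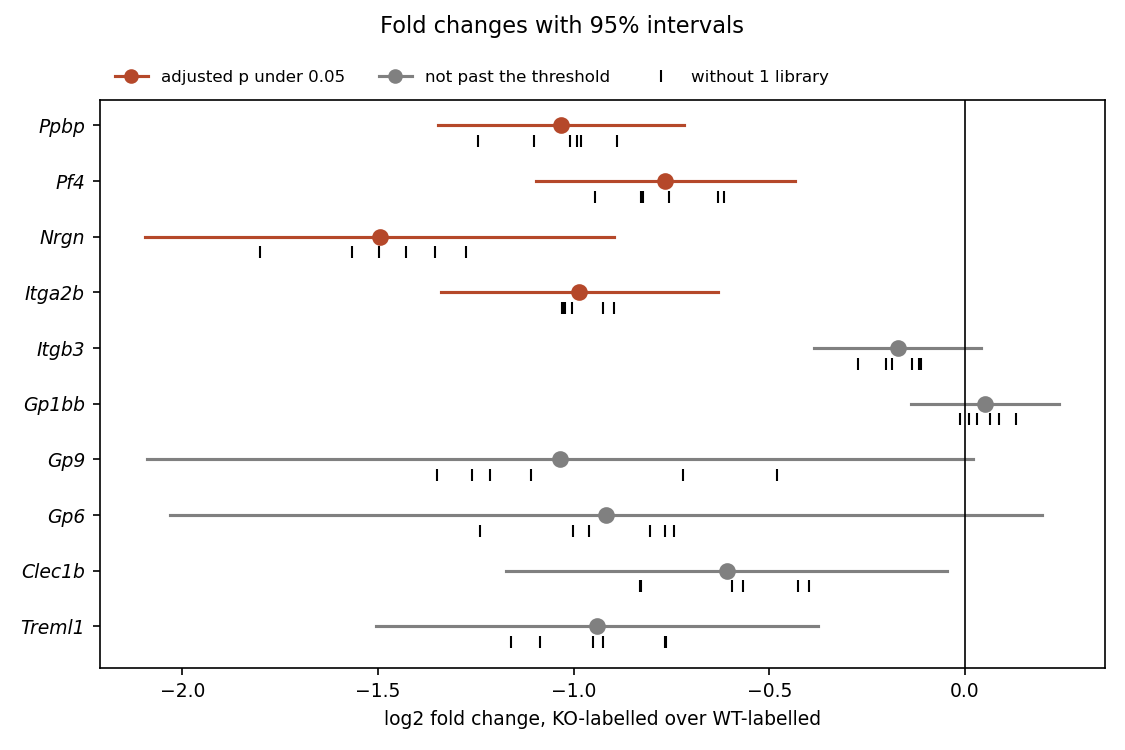
Log2 fold change (KO-labelled over WT-labelled, horizontal axis) with its 95% interval for each gene. Ticks under a line give the value without 1 library in turn. The 4 called genes lie between -1.4955 and -0.77, Itgb3 and Gp1bb lie at -0.17 and 0.05, and the intervals of Gp9 and Gp6 are the widest.

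Tags were counted for the genes of both chains of the platelet integrin, and their fold changes differed. Which cells these tags came from was not tested. Itga2b encodes the alpha IIb chain (ENSMUSG00000034664, chromosome 11, 102453297 to 102470122, minus strand, mm10). It had 10.4, 10 and 8.93 CPM in KO 1, 2 and 3, against 21.6, 18.3 and 18.1 CPM in WT 1, 2 and 3. The libraries of each group lay close together and the groups far apart, with means of 9.77 ± 0.75 CPM for the KO-labelled and 19.3 ± 1.98 CPM for the WT-labelled group (SD, n = 3 each). The log2 fold change was -0.99 (95% interval -1.34 to -0.63, SE 0.17, adjusted p = 0.0072), and it was called in 13 of 14 alternatives. Without WT 1 the adjusted p was 0.0575 (8.12e-05 to 0.0575 over all alternatives).

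Itgb3 encodes the beta 3 chain, which also pairs with alpha V (ENSMUSG00000020689, chromosome 11, 104608000 to 104670476, plus strand, mm10). Its level was 81.3, 87.2 and 88.7 CPM in KO 1, 2 and 3, against 103.7, 103.9 and 81.9 CPM in WT 1, 2 and 3. The groups overlapped through WT 3, and the log2 fold change of -0.17 (95% interval -0.39 to 0.04, adjusted p = 0.565) did not pass. It was -0.27 without WT 3, against -0.11 without WT 2 and -0.12 without WT 1. The interval did not reach the fold change of Itga2b. Itgav, the gene of the alpha V chain, was looked up after the values of Itgb3 were seen. It was at 9.17, 8.97 and 9.26 CPM in KO 1, 2 and 3 and at 15.1, 11.7 and 8.22 CPM in WT 1, 2 and 3, and the groups overlapped (log2 -0.35, SE 0.22, adjusted p = 0.605).

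Counts of Itga2b were 12.8%, 11.5% and 10.1% of those of Itgb3 in KO 1, 2 and 3, against 20.8%, 17.6% and 22.0% in WT 1, 2 and 3. The ratio was lower in each KO-labelled library, with a log2 difference of -0.81, or 0.569 of the WT-labelled ratio (exact two-sided permutation test, p = 0.1, adjusted over 3 gene pairs 0.1). Without 1 library in turn the difference ran from -0.91 (without WT 2) to -0.72 (without KO 3).

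**Figure D3:**
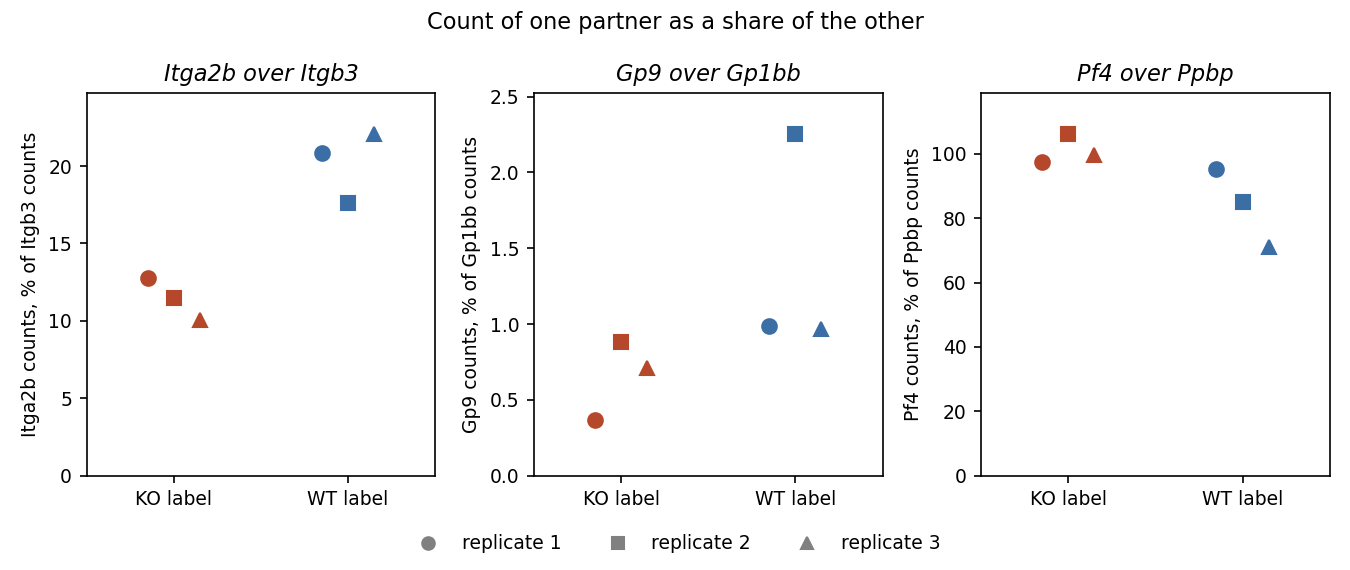
Counts of one partner as a percentage of the other's in each KO-labelled (left) and WT-labelled (right) library. The shares for Itga2b over Itgb3 (10.1% to 12.8% for KO and 17.6% to 22.0% for WT labels) and Gp9 over Gp1bb do not overlap and are lower in the KO-labelled libraries, and that for Pf4 over Ppbp is higher.

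Gp1bb and Gp9 encode the GPIb beta and GPIX subunits of the receptor for von Willebrand factor. Gp1bb (ENSMUSG00000050761, chromosome 16, 18620317 to 18622403, minus strand, mm10) had the most tags of the 10 genes, with 219, 267 and 252 CPM in KO 1, 2 and 3, against 248, 241 and 223 CPM in WT 1, 2 and 3. The groups overlapped fully, and the log2 fold change of 0.05 (95% interval -0.14 to 0.24, adjusted p = 0.889) changed sign to -0.05 when libraries were scaled to the total count alone. Exons of Gp1bb overlap those of Sept5, the gene of a septin, and of the predicted gene Gm49601 on the same strand. Gm49601 was not among the counted genes. The origin of the tags given to Gp1bb is therefore uncertain, and how many came from overlapping transcripts was not tested. Sept5 had 60, 90 and 139 counts in KO 1, 2 and 3 and 124, 114 and 75 counts in WT 1, 2 and 3, far fewer than 1625 to 2255 (KO) and 1654 to 2356 (WT) counts of Gp1bb.

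Gp9 (ENSMUSG00000030054, chromosome 6, 87778072 to 87779768, plus strand, mm10) had 6, 16 and 16 counts in KO 1, 2 and 3 and 20, 53 and 16 counts in WT 1, 2 and 3, or 0.81, 2.35 and 1.79 CPM (KO) against 2.45, 5.42 and 2.16 CPM (WT). The groups overlapped, and a single library, WT 2, was far above the rest. At this depth 6 counts allow an exact binomial 95% interval of 0.286 to 1.69 CPM in KO 1, where levels are scaled to the total count and the interval covers counting error only. The log2 fold change of -1.04 (95% interval -2.09 to 0.02, adjusted p = 0.452) was -0.48 without WT 2. As a share of Gp1bb, Gp9 counts were 0.37%, 0.88% and 0.71% in KO 1, 2 and 3, against 0.99%, 2.25% and 0.97% in WT 1, 2 and 3 (log2 difference -1.04, exact two-sided permutation p = 0.1, adjusted over 3 gene pairs 0.1), and -0.65 without WT 2 or -0.69 without KO 1. The other subunit genes of the complex, looked up for that reason after their values were seen, were also low. Gp1ba had 3, 0 and 2 counts in the KO-labelled and 0, 2 and 9 counts in the WT-labelled libraries, too few to be tested, and Gp5 had 56, 38 and 16 counts in KO 1, 2 and 3, against 76, 70 and 75 counts in WT 1, 2 and 3 (log2 -0.85, SE 0.36, adjusted p = 0.382). Tags of Gp1bb thus outnumbered those of each of its 3 partners in all 6 libraries.

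The remaining 3 genes encode receptors of platelet activation. Gp6 encodes the collagen receptor GPVI (ENSMUSG00000078810, chromosome 7, 4363965 to 4397744, minus strand, mm10). It had 5, 9 and 7 counts in KO 1, 2 and 3, against 17, 15 and 12 counts in WT 1, 2 and 3, or 0.67, 1.32 and 0.78 CPM (KO) against 2.09, 1.53 and 1.62 CPM (WT). The groups did not overlap, but exact binomial 95% intervals of single libraries did (by total count, KO 2 spanned 0.573 to 2.38 CPM while WT 2 spanned 0.869 to 2.56 CPM). The log2 fold change of -0.92 (95% interval -2.03 to 0.20, adjusted p = 0.551) did not pass.

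Clec1b encodes CLEC-2, the receptor for podoplanin (ENSMUSG00000030159, chromosome 6, 129397297 to 129409335, plus strand, mm10). Its level was 6.87, 9.12 and 5.25 CPM in KO 1, 2 and 3, against 13.6, 7.36 and 11.3 CPM in WT 1, 2 and 3. KO 2 was above WT 2, and the log2 fold change of -0.61 (95% interval -1.17 to -0.05, adjusted p = 0.391) did not pass; without WT 1 it was -0.40. Exons of Clec1b overlap those of Clec9a on the same strand, which had 2, 3 and 6 counts in the KO-labelled and 7, 13 and 9 counts in the WT-labelled libraries.

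Treml1 encodes TLT-1, a receptor kept in alpha granules and exposed on activation (ENSMUSG00000023993, chromosome 17, 48359916 to 48367176, plus strand, mm10). It had 6.07, 4.56 and 3.57 CPM in KO 1, 2 and 3, against 7.12, 8.89 and 11.2 CPM in WT 1, 2 and 3. The groups did not overlap, yet KO 1 and WT 1 lay close together. The log2 fold change was -0.94 (95% interval -1.51 to -0.38, SE 0.26, adjusted p = 0.139). Without the filter on low counts the adjusted p was 0.0325 (0.0325 to 0.345 over all alternatives).

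By mean tag level the order in the KO-labelled libraries was Gp1bb, Itgb3, Pf4, Ppbp, Itga2b, Clec1b, Nrgn, Treml1, Gp9 and Gp6. In the WT-labelled libraries it was Gp1bb, Itgb3, Ppbp, Pf4, Itga2b, Nrgn, Clec1b, Treml1, Gp9 and Gp6. Libraries of the neighbours Ppbp and Pf4, of Itga2b and Clec1b, of Clec1b, Nrgn and Treml1, and of Gp9 and Gp6 overlapped in the KO-labelled group. In the WT-labelled group those of Ppbp and Pf4, of Itga2b and Nrgn, and of Nrgn, Clec1b and Treml1 did. Gp1bb and Itgb3 held 74.2%, 79.9% and 82.5% of the tags of the 10 genes in KO 1, 2 and 3, against 65.2%, 69.7% and 63.8% in WT 1, 2 and 3. The 10 genes together had a summed level of 404.8, 443.6 and 412.3 CPM in KO 1, 2 and 3, against 539.7, 494.5 and 477.5 CPM in WT 1, 2 and 3. The groups did not overlap in this sum. The 8 genes other than Gp1bb and Itgb3, a division made after the values were seen, had a summed level of 104.5, 89.0 and 72.0 CPM in KO 1, 2 and 3, against 187.9, 149.8 and 172.6 CPM in WT 1, 2 and 3. The lowest library was KO 3 for 6 of the 10 genes and KO 1 for the other 4, and the highest was WT 1 for 5 of them and KO 2 for 1, Gp1bb.

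**Figure D4:**
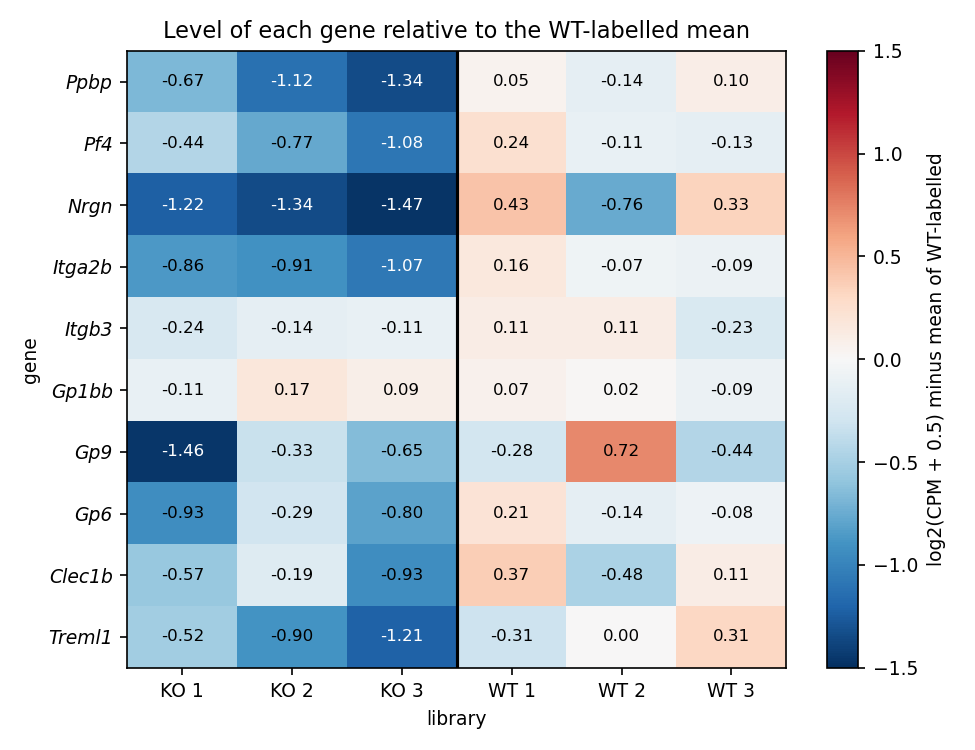
Level of each gene in each library on a log2 scale, relative to the mean of the WT-labelled libraries (log2 of CPM + 0.5; blue is lower, red is higher). KO-labelled columns are below 0 for all genes apart from Gp1bb in KO 2 and KO 3, with the lowest values for Nrgn in KO 3 (-1.47) and Gp9 in KO 1 (-1.46), while WT 2 is low for Nrgn (-0.76) and high for Gp9 (0.72).

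At the adjusted threshold, wider lists of platelet genes gave a share of calls near that of all genes. Some genes of these lists had many tags in these libraries, such as Myh9 (mean 1803 CPM) and Fcer1g (mean 1711 CPM). Which cells those tags came from was not tested. In 8 further lists of 91 genes, drawn up with earlier results of these data known, 72 genes were tested, 0 were called lower and 0 higher, where 0.789% and 0.24% of all genes were, and the median log2 fold change was -0.0060. At an unadjusted p under 0.05, 10 of the 72 were lower and 3 higher, or 13.9% lower, against the 6.35% of all genes. DESeq2 called 1 of them, the Src-family kinase gene Fyn (adjusted p = 0.0499), which was at 2.83, 0.59 and 2.01 CPM in KO 1, 2 and 3 and at 4.91, 5.93 and 5.12 CPM in WT 1, 2 and 3 (log2 -1.53, SE 0.42, adjusted p = 0.121 by edgeR). Fyn was also called without the filter on low counts (0.0079), and its adjusted p in the remaining alternatives was above 0.05. Srgn was called higher without that filter.

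The other adhesion receptors came nearest to the 10 genes, with 6 of 6 tested members below 0 on the log2 scale (median -0.43), although none passed. Their most abundant members were Itgb1, the beta 1 integrin chain, at 20.7 ± 2.68 CPM in KO-labelled and 28.5 ± 2.43 CPM in WT-labelled libraries (SD, n = 3 each; log2 -0.46, adjusted p = 0.180), and the tetraspanin gene Cd151 (log2 -0.13, adjusted p = 0.817). Itga2, the collagen-binding alpha 2 chain, had 0 counts in all 6 libraries.

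Alpha granule genes had a median of 0.03 over 15 tested members, which was -0.07 with total-count scaling. The proteoglycan gene Srgn was at 558 ± 44.9 CPM in KO-labelled and 457 ± 53.0 CPM in WT-labelled libraries (SD, n = 3 each; log2 0.29, adjusted p = 0.194). The tetraspanin gene Cd63 was at 468 ± 67.4 CPM in KO-labelled and 427 ± 26.6 CPM in WT-labelled libraries (log2 0.13, adjusted p = 0.681). Vwf, the gene of von Willebrand factor itself, named after its values were seen, had 43, 35 and 24 counts in the KO-labelled and 78, 60 and 48 counts in the WT-labelled libraries (log2 -0.72, SE 0.31, adjusted p = 0.384).

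No tested gene of the signalling, agonist receptor, integrin activation and thromboxane lists passed the test, and 6 of the 10 agonist receptor genes had too few counts to be tested. In the list of signalling genes below GPVI or CLEC-2, the gamma chain gene Fcer1g (log2 0.13, adjusted p = 0.498) and the kinase gene Lyn (0.06, adjusted p = 0.851) had the most tags. The 11 tested members had a median of 0.05, or -0.06 with total-count scaling. Among 10 integrin activation genes (median 0.13, or 0.03 with total-count scaling), Tln1, the gene of talin, was at 0.14 and the small GTPase gene Rap1b at 0.13 (adjusted p 0.501 and 0.504). The 4 tested agonist receptors included the ATP-gated channel gene P2rx1 (0.24, adjusted p = 0.843) and the ADP receptor gene P2ry1 (0.62, adjusted p = 0.308). Their median of 0.10 changed sign with total-count scaling (-0.0003), without the filter (-0.12) and without KO 2 (-0.05), and was 0.41 with the stricter filter. P2ry1 was above all WT-labelled libraries in each KO-labelled one, at 7.82, 8.24 and 8.03 CPM in KO 1, 2 and 3, against 4.66, 6.44 and 4.45 CPM in WT 1, 2 and 3. In the thromboxane list all 4 tested genes were below 0 (median -0.26), with the cyclooxygenase gene Ptgs1 at -0.45 (adjusted p = 0.120) and the thromboxane synthase gene Tbxas1 at -0.07 (adjusted p = 0.895). Ptgs1 was called lower with total-count scaling alone (adjusted p = 0.0445).

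Transcription factors of the megakaryocyte lineage had a median of -0.08 over 10 tested genes. Nfe2, needed for platelet release, was at 0.08 (adjusted p = 0.794). Gata1, named after its values were seen, had 17, 15 and 14 counts in the KO-labelled and 17, 19 and 12 counts in the WT-labelled libraries. In the cytoskeleton list (12 tested, median -0.10) the myosin gene Myh9 was at 0.0044 (adjusted p = 0.987) and the filamin gene Flna at 0.14 (adjusted p = 0.527). Tubb1, the gene of the platelet-specific beta 1 tubulin, had 0 counts in all 6 libraries. A count of 0 allows up to 3 counts in a library, for counting error only.

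**Figure D5:**
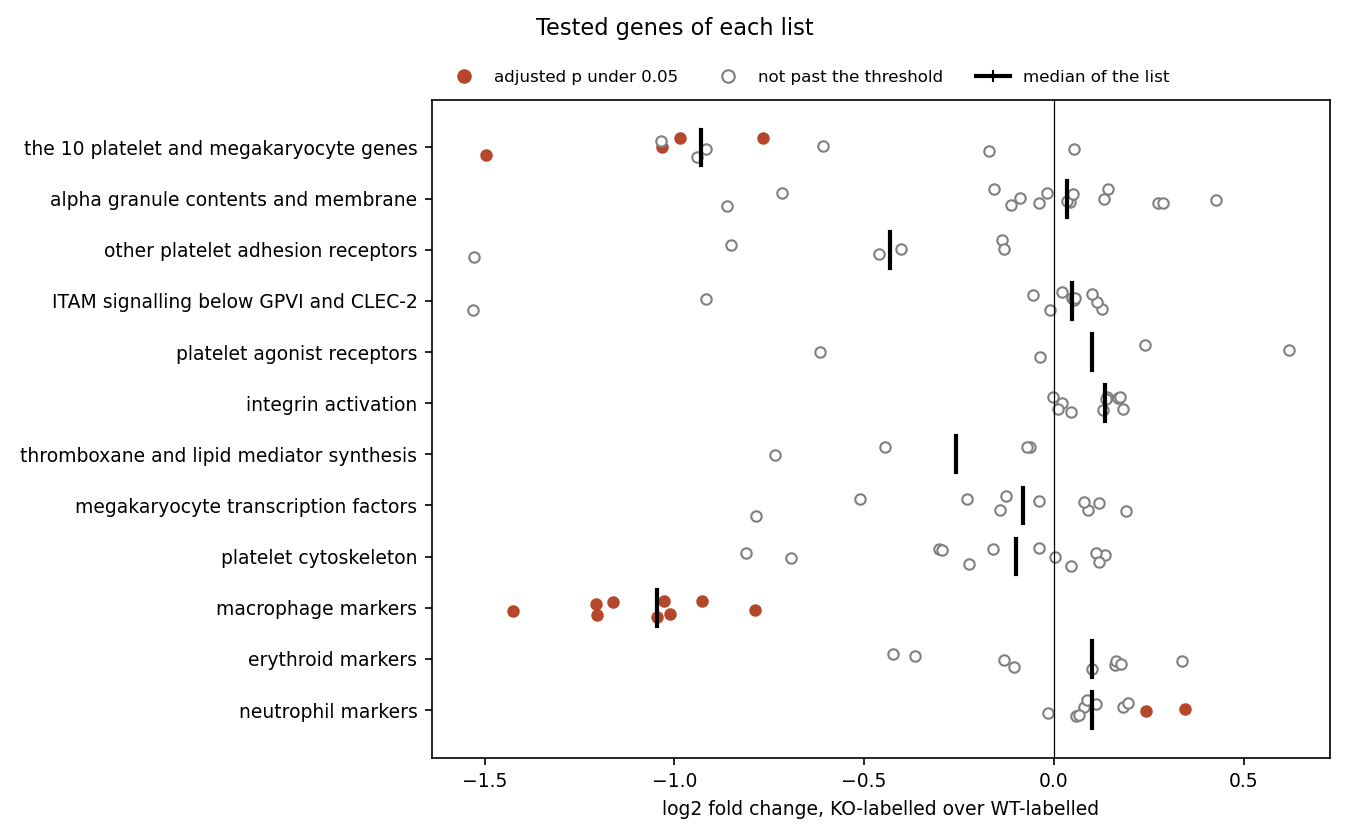
Log2 fold change (KO-labelled over WT-labelled) of each tested gene in the 10 platelet and megakaryocyte genes, 8 further platelet lists and markers of 3 other cell types. Filled points passed an adjusted p under 0.05 and black bars are medians, -0.93 for the 10 genes, -0.43 to 0.13 for the further platelet lists and -1.04 for macrophage markers.

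Markers of macrophages were lower in the KO-labelled libraries, as were the 4 platelet genes that passed the test. The marker lists of all cell types were drawn up with earlier results of these data known. All 9 macrophage markers tested were called lower in the KO-labelled libraries (median -1.04), where 0.789% of all genes tested were. Vcam1, an adhesion molecule of macrophages, was the most abundant (log2 -1.03, adjusted p = 0.000131). Their summed level was 463, 480 and 571 CPM in KO 1, 2 and 3, against 1033, 1004 and 1086 CPM in WT 1, 2 and 3. The part of other cells in the platelet result was not tested. The basophil, eosinophil and mast cell list had a summed level between 22.4 and 37.1 CPM in KO-labelled libraries and between 43.6 and 60.9 CPM in WT-labelled libraries. Of its 3 tested genes 1 was called lower, against 0.789% of all genes tested. It was the eotaxin receptor gene Ccr3 (log2 -1.15, adjusted p = 0.0183), with means of 15.4 CPM in KO-labelled and 34.7 CPM in WT-labelled libraries. The other tested genes of this list, named after their values were seen, were Prg2 and Mcpt8. Prg2 was at 0.0096 (adjusted p = 0.994) and Mcpt8 at -1.79 (adjusted p = 0.0957). Ly6c2, the most abundant monocyte marker, was at 0.06 (adjusted p = 0.836), and 0 of 6 monocyte markers passed. The other 5 were below 0 (list median -0.18), and 1 of the 6, the coagulation factor gene F13a1, was also in the alpha granule list.

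Erythroid cells share a progenitor with megakaryocytes, and the summed level of their markers overlapped between the groups. Of 9 tested erythroid markers 0 passed (median 0.10), and their summed level was 861, 1407 and 714 CPM in KO 1, 2 and 3, against 612.5, 1025 and 1042 CPM in WT 1, 2 and 3. The beta globin gene Hbb-bs was at 0.16 (adjusted p = 0.835). Igkc, the kappa light chain gene, led the B and plasma cell list, where 2 of 7 tested genes were higher, against 0.24% of all genes tested. The 2 were Igkc (log2 1.498, adjusted p = 0.0141) and Jchain (1.39, adjusted p = 0.0361), the gene of the joining chain of secreted antibodies. The other markers of that list did not pass, 4 of the 7 were below 0 and the list median was -0.20. The most abundant markers of T cells (Cd3d, 0.27, adjusted p = 0.418), stem and progenitor cells (Kit, -0.09, adjusted p = 0.913) and endothelial cells (Pecam1, -0.24, adjusted p = 0.733) did not pass, nor did any other tested gene of these lists. The list medians had the other sign, at -0.26 over 2 tested T and NK cell genes, 0.06 over 2 stem and progenitor genes and 0.16 over 4 endothelial and stromal genes. Cd3e and Cdh5, named after their values were seen, had too few counts to be tested. Cd3e had 4, 2 and 4 counts in KO 1, 2 and 3 and 0 in each WT-labelled library. Cdh5 had 1, 0 and 2 counts in KO 1, 2 and 3 and 1, 1 and 2 in WT 1, 2 and 3. Which cells the tags of Cd3d and Pecam1 came from was not tested. Neutrophil markers had a median of 0.10, and 2 of 10 were called higher (S100a8 at 0.24 and Retnlg at 0.35), against 0.24% of all genes tested.

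The genes outside the platelet lists whose level followed that of Ppbp most closely over the 6 libraries were Mettl23, Abcc5, Timm13, Glrx3 and Eif5b, with a Pearson r of 0.98 to 0.99 on log2 CPM. Among the 5601 named genes outside these lists that averaged 10 CPM or more over all libraries, predicted gene models left out, 64 had r above 0.9. The 6 points share the difference between the groups. None of the 5 passed the test, and their log2 fold changes ran from -0.56 for Timm13 to -0.20 for Abcc5. Among the 10 genes themselves, r with Ppbp was 0.96 for Pf4, 0.95 for Itga2b and 0.94 for Treml1. It was 0.90 for Nrgn, 0.72 for Gp6 and Clec1b, 0.36 for Gp9 and Itgb3, and -0.49 for Gp1bb.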

How the data were processed

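For the 6 QuantSeq libraries the authors deposited raw counts, 1 row per Ensembl gene, in a single table. The submitters' processing notes list RSEM 1.2.3, DESeq2 and mm10 and do not say what each was used for. No source used here gives the aligner, annotation, strand setting or filters. Without a strand setting, reads of genes that overlap on opposite strands cannot be told apart. The exon overlaps found for Gp1bb and Clec1b were on the same strand, where strand would not separate the reads either. Gene names, coordinates and exon overlaps came from GENCODE vM21 (51596 of 51789 genes named; the other 193 held 0.00812% of counts) and start-site windows from RefSeq (GRCm38.p6). The marker Ahsp was not analysed here.

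Counts of all genes were fitted with edgeR 4.0.16 in R 4.3.3 (glmQLFit, glmQLFTest; TMM factors; filterByExpr with minimum count 10 and total count 15), with group as the one term. P-values were adjusted by Benjamini-Hochberg across all 10397 genes that passed the filter. Standard errors are the fold change over the square root of F. Ratios of 2 genes used counts + 0.5 and exact permutation over samples. Alternatives were RLE, upper-quartile and total-count scaling, no filter, a stricter one (5 CPM or more in at least 3 libraries), DESeq2 1.42.0, limma-voom (limma 3.58.1), a replicate block, other thresholds and leaving out each library. The procedure was tested on simulated data. Genes and lists were chosen with earlier results of these data known; the text names the 10 genes, the 2 most abundant tested members of each further list, the most abundant marker of each cell type, Snph and the 5 genes most like Ppbp, and says where others were added. A gene that this rule names is not reported here. No 2 replicates agreed within sampling noise (chi-square per degree of freedom 4.12 to 6.79).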

Additional observations from a re-analysis of the deposited data

How the results depend on the processing

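The 4 calls among the 10 genes held under every scaling, with no filter or a stricter one, with DESeq2 and with the replicate block. Limma-voom called 3, no filter added Treml1 as the fifth, and a threshold of 0.01 left 2. Leaving out 1 library gave 1 to 4 calls. No gene of the 10 was called higher in any of these fits. Gp1bb changed sign with total-count scaling (-0.0521) and without KO 2 (-0.0134; up to 0.13 without another library). Over all genes 107 were called, against 162 with total counts only (88.9% of them lower, against 76.6%), 287 without a filter, 174 with DESeq2, 46 and 182 at thresholds of 0.01 and 0.1, and 49 to 97 without 1 library. Total-count scaling shifted all genes by a median of -0.103 (log2); the median of the 10 genes was then -1.03. The ratios of gene pairs kept their sign in every alternative. Replicate numbers did not pair the samples: deviations of same-numbered libraries correlated at -0.03, -0.01 and -0.13, and each KO-labelled library correlated best with a WT-labelled one of another number. A fit with the replicate block called 92 genes. The lowest counts were those of Gp6 and Gp9, with 5 to 53 per library, which the stricter filter removed.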
